A study of Mus musculus with 20 samples.

Results

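Peg10 and 9 other imprinted genes (Sgce, Peg3, Mest, Igf2, H19, Cdkn1c, Grb10, Plagl1 and Igf2r) were followed in LLC1 tumors, 10 of the 35226 genes counted. The genes were listed by symbol, and Peg10 was picked because its level was lower after cisplatin than after vehicle, so that difference is given as a description. All 10 symbols were found, and 9 passed the filter on low counts; Igf2 did not. The question was whether Sgce, the neighbor of Peg10, and the other imprinted genes moved with it across the 4 groups.

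Poly(A)-selected RNA was sequenced from 20 tumors of LLC1, a Lewis lung carcinoma line from C57BL/6 mice, grown under the skin of male C57BL/6J mice aged 8 to 10 weeks. Mice were assigned to treatment when tumors reached 100 mm3, and received vehicle, KW6002 (istradefylline, a blocker of an adenosine receptor), cisplatin (a platinum drug that crosslinks DNA), or both drugs (cotreatment), with 5 tumors per group. The agent label of vehicle replicate 1 reads vehicle, and that of the other 4 vehicle tumors names vehicle for both drugs. Each tumor gave 28.4 to 41 M counted reads. All tumors came from 1 transplanted line, and the label of lung carcinoma was checked against lung epithelial markers. Krt8 and Krt18 were present at 95.2 to 215 and 224 to 378 CPM (counts scaled to library size), Cdh1 and Krt19 at 1.24 to 3.87 and 1.08 to 8.96 CPM, whereas Epcam, Sftpc and Scgb1a1 had at most 5, 1 and 2 counts in any tumor. In bulk RNA, fewer cells of a type and less RNA per cell cannot be told apart, and total counts do not show which parental allele a read came from.

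Imprinted genes are expressed mainly from the allele of a single parent, according to DNA methylation set in the egg or the sperm at an imprinting control region. They lie in clusters that share such a region, and many act on fetal growth, the placenta and metabolism, often through insulin-like growth factor (IGF) signaling. Tumors may lose an imprint or shut off the active allele, so that levels differ widely between tumor lines.

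The members were described by cluster and role. Peg10 (ENSMUSG00000092035; chr6:4747306-4760517, plus strand), a gene derived from a retrotransposon and needed for the placenta, and Sgce (ENSMUSG00000004631; chr6:4674350-4747207, minus strand), which encodes epsilon-sarcoglycan of the membrane complex linked to dystrophin, are transcribed away from each other, with 98 bases between their starts on GRCm38. Both are expressed from the paternal allele. Mest (ENSMUSG00000051855; chr6:30723547-30748465) lies farther along the same chromosome, and Peg3 (ENSMUSG00000002265; chr7:6703892-6730431), a zinc finger protein gene, lies head to head with Usp29, with 146 bases between the starts. Igf2 (ENSMUSG00000048583), a fetal growth factor, and H19 (ENSMUSG00000000031), a long noncoding RNA, share 1 control region on chromosome 7. Cdkn1c (ENSMUSG00000037664), an inhibitor of the cell cycle, is on the same chromosome. Igf2r (ENSMUSG00000023830; chr17:12682406-12769664) encodes the receptor that carries IGF2 to lysosomes, Grb10 (ENSMUSG00000020176, chromosome 11) an adaptor that restrains insulin and IGF receptors, and Plagl1 (ENSMUSG00000019817, chromosome 10) a zinc finger transcription factor.

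Peg10 mRNA carries a retroviral mark, a heptamer at which a share of ribosomes shifts reading frame to make the longer Gag-Pol-like protein. It is shown because it identifies the gene. The heptamer GGGAAAC was found in 2 of the 3 annotated Peg10 transcripts. In the transcript whose coding part ends after 376 codons it starts at the third base of a codon (chr6:4755327-4755333), and 15 bases later the first frame ends at a TAG. The window (chr6:4755303-4755348, GRCm38, plus strand) is given with the heptamer in capitals:
Peg10: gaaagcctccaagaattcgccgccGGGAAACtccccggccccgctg

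Promoter windows of 300 bases, most of them before the annotated start, from RefSeq (GRCm38.p6), were matched for 6 of the 10 members. Peg10, Sgce, H19 and Cdkn1c had no entry. The windows of Mest (chr6:30737800-30738099, plus strand; the first of its entries with the most CG pairs), Peg3 (chr7:6730370-6730669, minus strand) and Igf2r (chr17:12769657-12769956, minus strand) are shown because these members were lower after cisplatin, with CG pairs, the sites of DNA methylation, in capitals:
Mest: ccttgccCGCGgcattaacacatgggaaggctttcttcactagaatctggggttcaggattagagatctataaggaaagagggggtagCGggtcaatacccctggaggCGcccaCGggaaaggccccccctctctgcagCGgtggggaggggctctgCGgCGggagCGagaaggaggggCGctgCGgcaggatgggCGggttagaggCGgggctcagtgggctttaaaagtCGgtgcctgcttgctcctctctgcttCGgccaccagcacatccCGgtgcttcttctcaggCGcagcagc
Peg3: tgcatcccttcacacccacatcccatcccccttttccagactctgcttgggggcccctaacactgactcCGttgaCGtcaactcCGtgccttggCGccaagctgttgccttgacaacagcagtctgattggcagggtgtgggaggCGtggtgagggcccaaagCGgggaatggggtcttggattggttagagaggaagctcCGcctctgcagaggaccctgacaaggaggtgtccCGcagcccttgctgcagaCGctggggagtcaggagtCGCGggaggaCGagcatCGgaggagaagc
Igf2r: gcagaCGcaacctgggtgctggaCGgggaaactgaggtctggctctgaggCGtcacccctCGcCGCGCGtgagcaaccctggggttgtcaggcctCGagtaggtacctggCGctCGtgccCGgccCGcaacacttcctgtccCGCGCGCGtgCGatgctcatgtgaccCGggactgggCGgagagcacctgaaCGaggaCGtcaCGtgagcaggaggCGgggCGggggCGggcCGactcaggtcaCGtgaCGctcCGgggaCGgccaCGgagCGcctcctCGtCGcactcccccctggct

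The windows held 17 CG pairs in Mest, 13 in Peg3 and 34 in Igf2r. At least as many were found in 31.4%, 37.9% and 7.73%, respectively, of the 32851 windows of the table, all 300 bases long. The Mest window was picked from 3 entries for its CG pairs, so its share is not that of an unselected window. Peg3 and Igf2r had 1 entry each. The palindrome TGACGTCA, known as the cAMP response element and chosen after the sequences had been seen, occurred once in the Peg3 window, not in those of Mest or Igf2r, and in 1.79% of all windows. The Peg3 window overlaps that of Usp29 (chr7:6730333-6730632, plus strand). DNA methylation was not measured in these tumors.

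The members differed widely in level. Per kb of exon, in vehicle tumors, H19 was highest at 121.7 ± 16.2 RPKM (CPM per kb of exon; SD, n = 5), followed by Igf2r at 65.6 ± 1.97 and Peg10 at 19.5 ± 1.00. Grb10 (13.3 ± 0.324) and Peg3 (12.9 ± 2.34) came next and did not differ beyond their spread. Mest (5.10 ± 0.830) and Sgce (3.21 ± 0.187) were lower, so that Peg10 stood above its head-to-head neighbor. Cdkn1c (0.101 ± 0.0878) and Plagl1 (0.0959 ± 0.0202) were near the limit of detection and did not differ beyond their spread, and Igf2 was last with at most 2 counts in any tumor.

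Peg10 was lower in every tumor given cisplatin. In vehicle tumors, replicates 1 to 5 had 140.4, 125, 133, 129 and 124 CPM. In KW6002 tumors they had 125, 155, 103, 122 and 136 CPM, a wider range around much the same level. In cisplatin tumors they had 70.2, 58.4, 49.6, 47.1 and 61.7 CPM, and in cotreated tumors 73.1, 61.1, 76.4, 71.5 and 57.8 CPM. The highest tumor with cisplatin (76.4 CPM) therefore lay below the lowest tumor without it (103 CPM). How common such a separation is among all tested genes is not given here, for Peg10 or for the genes below. Means were 130.3 ± 6.68, 128 ± 19.1, 57.4 ± 9.35 and 68.0 ± 8.06 CPM (SD, n = 5) in vehicle, KW6002, cisplatin and cotreatment. The difference between cisplatin and vehicle, on which the gene was chosen, was -1.18 on the log2 scale, and that between cotreatment and vehicle, which uses the same vehicle tumors, was -0.94.

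**Figure D1:**
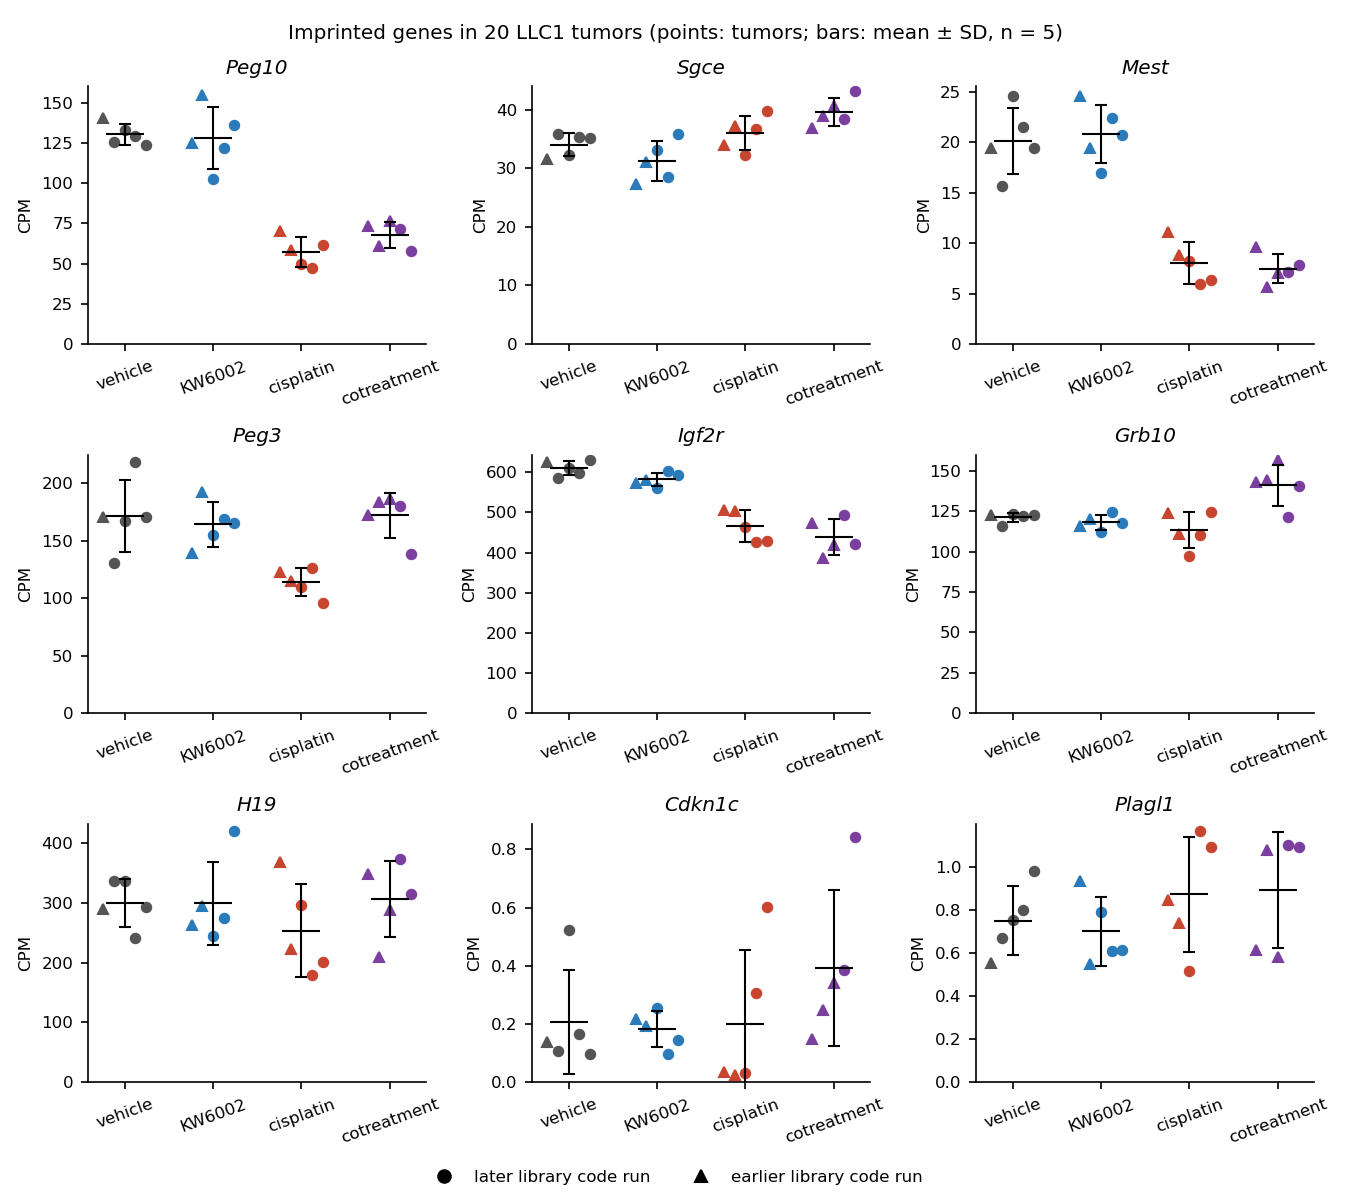
CPM (y axes, from 0) of 9 imprinted genes in each of 20 tumors by group (x axes), with horizontal bars for means and vertical bars for SD (n = 5). Triangles mark the earlier and circles the later run of library codes. Peg10 and Mest in tumors given cisplatin lie below all tumors without it, Sgce does not, and Peg3 is low in cisplatin but not in cotreated tumors.

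The comparison of cotreatment with KW6002 shares no tumor with the difference by which Peg10 was picked, although the 10 members were listed with earlier results of all 4 groups known. There Peg10 fell by 0.91 on the log2 scale (95% interval -1.14 to -0.68; adjusted P = 3.48e-06, edgeR quasi-likelihood test over 16665 genes), and the groups did not overlap. In this comparison 4 of the 9 tested members were called, that is, had an adjusted P value under 0.05 and an absolute log2 fold change of at least 0.32, and 23.3% of all tested genes were (12.6% higher, 10.7% lower). Peg10, Mest and Igf2r were lower and Sgce was higher. KW6002 alone did not detectably alter Peg10 (log2 fold change -0.03, interval -0.25 to 0.20). Cotreated tumors were 0.24 above cisplatin tumors, a value given as a description because the choice of Peg10 used those cisplatin tumors.

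The numbers in the library codes fell into an earlier and a later run, and Peg10 was somewhat higher in the earlier run of each group. Means were 140.4 (n = 1) and 128 (n = 4) CPM in vehicle, 139.8 (n = 2) and 120.2 (n = 3) in KW6002, 64.3 (n = 2) and 52.8 (n = 3) in cisplatin, and 70.2 (n = 3) and 64.7 (n = 2) in cotreatment, for the earlier and the later run. Within the later run the log2 fold change of Peg10 between cotreatment and KW6002 was -0.88, and with the run as a term it was -0.95.

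Sgce, whose start lies next to that of Peg10, did not follow it. Vehicle tumors had 31.5, 35.9, 32.3, 35.3 and 35.2 CPM, and KW6002 tumors 27.3, 31.1, 33.2, 28.6 and 35.9 CPM. Cisplatin tumors had 34.03, 37.3, 32.3, 36.7 and 39.7 CPM, and cotreated tumors 36.9, 38.9, 40.5, 38.3 and 43.2 CPM. The cisplatin range overlapped that of vehicle, whereas the cotreated tumors all lay above the vehicle and KW6002 tumors. The log2 fold change after cisplatin was 0.08 (interval -0.08 to 0.24; adjusted P = 0.479, edgeR). Peg10 was chosen on its value in this comparison, so the neighbors are set side by side in cotreatment against KW6002. Sgce rose in cotreated against KW6002 tumors, by 0.34 (interval 0.19 to 0.50; adjusted P = 0.00113, edgeR), and was 0.22 against vehicle, under the fold limit. The rise was close to that limit: it was 0.30 without KW6002 replicate 1 and 0.32 without cotreated replicate 5, where it was no longer called, and in the later run it was 0.34 (adjusted P = 0.0626, edgeR).

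The balance of the neighboring genes was set out as a ratio. The log2 ratio of Peg10 to Sgce in CPM, without a correction for length, had means of 1.93 ± 0.154 and 2.03 ± 0.266 without cisplatin (vehicle and KW6002) and of 0.66 ± 0.245 and 0.77 ± 0.235 with it (cisplatin and cotreatment; SD, n = 5). It ranged from 1.63 to 2.31 in KW6002 and from 0.42 to 0.99 in cotreated tumors, so these groups did not overlap. The difference was -1.26 (two-sided exact permutation P = 0.00794, the smallest that 5 against 5 tumors allow). Within the later run it was -1.22, where 3 against 2 tumors gave an exact P of 0.2. Every cotreated tumor had less Peg10 and more Sgce than every KW6002 tumor, as given above. The ratio therefore had to separate these groups, and its P values add nothing to the values of each gene.

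Beyond Sgce, the genes near Peg10 were examined as a group. Of 23 annotated genes within 500 kb, Peg10 and Sgce included, 8 were tested. Ppp1r9a, which encodes neurabin, an actin-binding protein of neurons, and is imprinted in the placenta, begins 142.4 kb beyond the end of Peg10 (chr6:4902917-5165661). Its level was at least 16.1 CPM with vehicle (mean 18.8 ± 2.26, SD, n = 5) and at least 15.5 CPM with KW6002 (18.8 ± 3.23). With cisplatin the range was 7.85 to 12.9 CPM and with cotreatment 8.67 to 12.2 CPM, so the tumors with and without cisplatin did not overlap. The log2 change was -0.84 after cisplatin (adjusted P = 4.31e-04, edgeR) and -0.90 in cotreatment against KW6002 (adjusted P = 6.19e-05, edgeR). Ppp1r9a thus fell in both comparisons, whereas Sgce, the closest gene, did not fall in either.

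Changes at the other genes of the region were smaller or were not called. Casd1, a sialic acid acetyltransferase gene that starts 146.5 kb before Peg10, was -0.33 after cisplatin (called) and -0.28 in cotreatment against KW6002 (not called). Pon3, a lactonase of the paraoxonase family, was -0.37 and -0.50, both called. Gm44250, a gene model still to be experimentally checked, was -0.35 (called) and -0.20 (not called). Col1a2, a collagen chain of fibroblasts, varied too widely for a statement, with log2 fold changes of 0.92 and 0.36 and intervals that include 0, and Gm44432 had a mean of 18.2 counts and was not called. The remaining 15 genes had too few counts to be tested.

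**Figure D2:**
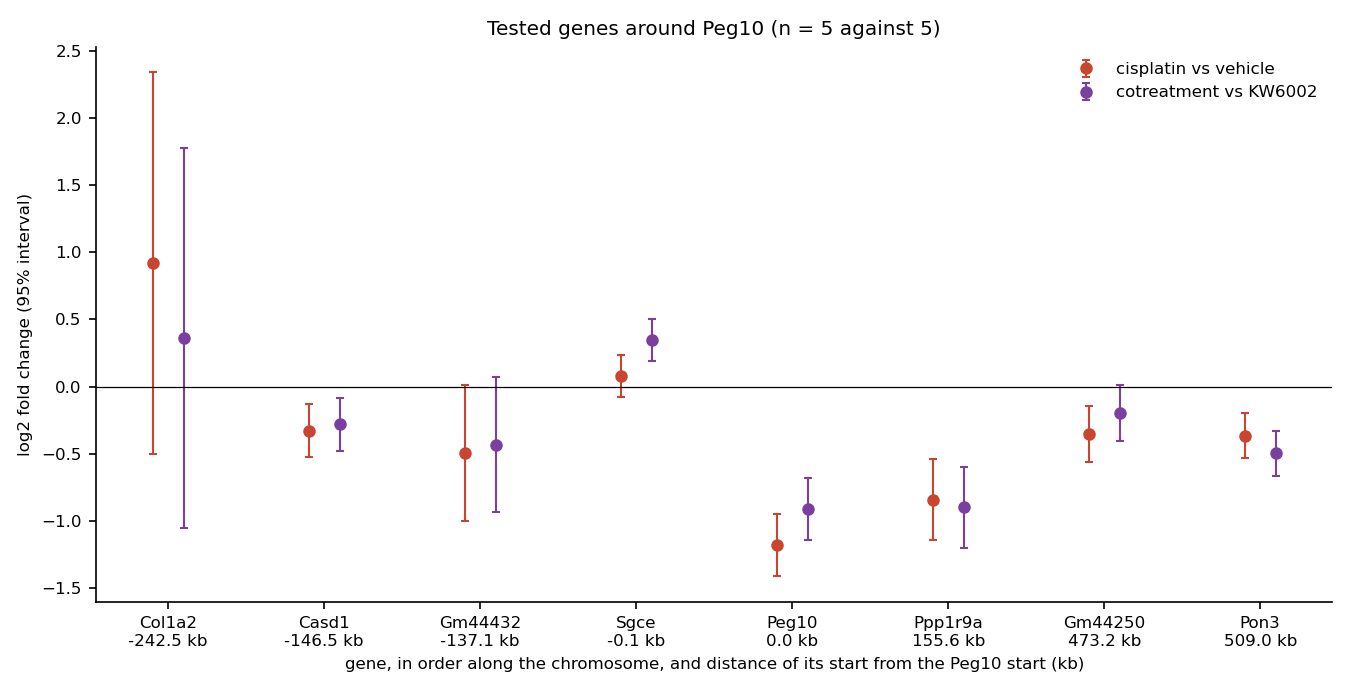
Log2 fold change (y axis, bars 95% interval, n = 5 against 5) of the 8 tested genes around Peg10, in order along the chromosome with the distance of each start from that of Peg10 in kb (x axis). Sgce lies at 0.08 and 0.34 and Peg10 beside it at -1.18 (the value on which it was chosen) and -0.91, while Ppp1r9a lies at -0.84 and -0.90.

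Mest, which encodes a protein of the alpha/beta hydrolase fold and is active in fetal mesoderm, was, like Peg10, lower in every tumor given cisplatin. Vehicle tumors had 19.4, 15.7, 24.6, 21.5 and 19.4 CPM, and KW6002 tumors 24.5, 19.4, 16.9, 22.4 and 20.8 CPM. Cisplatin tumors had 11.1, 8.79, 8.20, 5.92 and 6.35 CPM, and cotreated tumors 9.62, 5.68, 6.99, 7.10 and 7.83 CPM. All 10 tumors with cisplatin lay below the 10 without it. Mest fell after cisplatin, with a log2 change of -1.32 (interval -1.67 to -0.98; adjusted P = 2.51e-05, edgeR) and -1.48 in cotreatment against KW6002 (interval -1.83 to -1.14; adjusted P = 1.53e-06, edgeR). Both calls held under all 30 alternatives. Mest shares 912 exon bases with Copg2 on the other strand, and the strand option of the counting was not given in the sources used here. Copg2 itself was -0.22 and -0.21, under the fold limit.

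Of the 9 tested members, 4 were called for cisplatin against vehicle, against 10.6% of all tested genes (6.01% higher, 4.57% lower). These were Peg10, by which the list was started, and Mest, Peg3 and Igf2r, all lower. Under cotreatment against vehicle 3 members were called (Peg10, Mest and Igf2r, all lower), where 23.5% of all tested genes were (13.1% higher, 10.4% lower). For KW6002 against vehicle 0 members and 0% of genes were called, with 339 genes at an unadjusted P under 0.05 and 0 members called in DESeq2.

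Igf2r is among the most abundant members and moved by less, with little spread. In vehicle tumors it was measured at 625, 586, 611, 599 and 631 CPM, and in KW6002 tumors at 572, 581, 561, 603 and 593 CPM. Cisplatin tumors had 507, 504, 464, 425 and 429.6 CPM, and cotreated tumors 473, 387, 419.6, 494 and 420.2 CPM. No tumor with cisplatin reached the lowest without it. The log2 fold change was -0.39 after cisplatin (interval -0.53 to -0.25; adjusted P = 3.68e-04, edgeR) and -0.41 in cotreatment against KW6002 (interval -0.54 to -0.27; adjusted P = 6.26e-05, edgeR). Airn, the paternal noncoding RNA that overlaps Igf2r on the other strand and silences it on that allele during development, fell as well, by 0.40 and 0.56, from 36.4 to 44.6 CPM in vehicle to 27.1 to 33.9 CPM in cisplatin tumors. The annotated exons of the pair share 0 bases, but reads from introns of Igf2r can fall in Airn if strand was ignored.

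Peg3 was lower in cisplatin tumors than in vehicle tumors and than in cotreated tumors. Vehicle tumors had 171, 131, 167, 219 and 171 CPM, and KW6002 tumors 139, 192, 155, 169 and 166 CPM. Cisplatin tumors had 123, 115, 109, 127 and 95.8 CPM, all below every vehicle tumor. Cotreated tumors had 172, 184, 186, 179.9 and 139 CPM, all above every cisplatin tumor. Peg3 thus fell after cisplatin, by 0.59 (interval -0.83 to -0.35; adjusted P = 0.00147, edgeR), and was higher in cotreated than in cisplatin tumors, by 0.60 (interval 0.36 to 0.84; adjusted P = 0.00506, edgeR).

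Peg3 was the only member called in that last comparison, where 4% of all genes were called. Against vehicle the cotreated tumors differed by 0.00 (interval -0.24 to 0.24), and against KW6002 by 0.07. The 2 called differences share the same 5 cisplatin tumors. The interaction, the effect of cisplatin with KW6002 minus that without it, was 0.66 for Peg3 (interval 0.32 to 1.00) but missed the threshold (adjusted P = 0.0975, edgeR), and passed it in DESeq2 (0.66, adjusted P = 0.00946). Over all tests the interaction called 0 members and 0.066% of genes in edgeR, 2034 genes having an unadjusted P under 0.05, and 2 members (Peg3 and Grb10) and 1.79% of the genes with an adjusted P value in DESeq2. In the later run alone the difference of Peg3 between cotreatment and cisplatin was 0.53 and was not called (3 against 2 tumors, adjusted P = 0.304, edgeR).

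Usp29, the ubiquitin protease gene that starts beside Peg3, was also examined. Without cisplatin its means were 2.59 ± 0.480 (vehicle) and 2.80 ± 0.625 (KW6002) CPM, and with cisplatin 1.41 ± 0.393 (alone) and 1.60 ± 0.294 (cotreatment) CPM (SD, n = 5). It fell by 0.88 after cisplatin and by 0.80 in cotreatment against KW6002 (a call lost in the later run alone), and cotreated exceeded cisplatin tumors by 0.18, which was not called (interval -0.25 to 0.62; adjusted P = 0.622, edgeR). This interval includes the value of Peg3, and the difference between the genes was not tested.

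**Figure D3:**
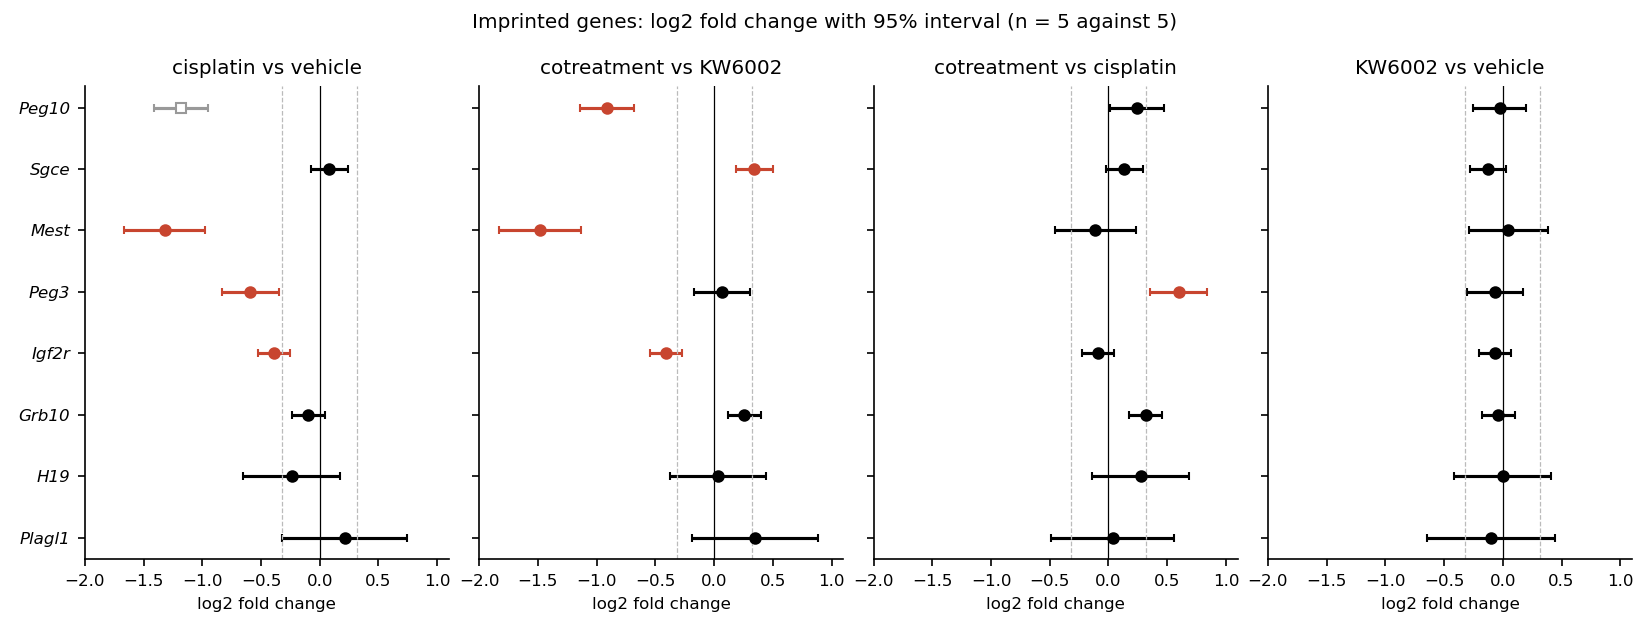
Log2 fold change (x axes, points) with 95% interval (bars) of 8 members in 4 comparisons of 5 against 5 tumors. Red marks called genes, the open gray square the value on which Peg10 was chosen, and dashed lines the fold limit of 0.32. Peg10, Mest and Igf2r are lower in both comparisons of tumors with and without cisplatin, Peg3 is lower in the first and higher in the third, and no member is called for KW6002 alone. Cdkn1c, with few counts, is not drawn.

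H19, Grb10, Cdkn1c and Plagl1 were not called in any comparison. H19 had 289.6, 336, 337, 241 and 292 CPM in vehicle, 264, 295, 244, 274 and 419.6 CPM in KW6002, 369, 222, 296, 179.7 and 202 CPM in cisplatin, and 348, 209, 288, 373 and 315 CPM in cotreated tumors. All 4 groups overlapped, and the interval of its change after cisplatin (-0.65 to 0.17) is wide. Igf2, which shares the control region of H19, had 12 counts in the 20 tumors together and was not tested, so these tumors held H19 RNA at high level and next to no Igf2 RNA.

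Grb10 sat at the fold limit. It had 123, 116, 123, 122 and 122 CPM in vehicle, 116, 120.4, 112, 124 and 118 CPM in KW6002, 124, 111, 97.3, 110.2 and 125 CPM in cisplatin, and 143, 144, 157, 121 and 140.4 CPM in cotreated tumors. Cotreated tumors were higher than cisplatin tumors by 0.316 on the log2 scale (adjusted P = 0.00779, edgeR), just under the limit of 0.32, and cotreated replicate 4 lay within the other groups. Grb10 was called there under 8 of 30 alternatives, among them relative log expression scaling (0.323) and without cotreated replicate 4 (0.37), cisplatin replicate 1 (0.35) or cisplatin replicate 5 (0.36). Without cotreated replicate 4 its interaction was also called (0.40, adjusted P = 0.0227, edgeR).

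Cdkn1c had between 1 and 27 counts per tumor and Plagl1 between 16 and 40. Cdkn1c had 1, 1, 1, 10 and 21 counts in cisplatin tumors, which include the 3 lowest values of the series, and its intervals spanned more than 2 log2 units. Plagl1 had group means of 0.750, 0.699, 0.871 and 0.892 CPM in vehicle, KW6002, cisplatin and cotreatment. Neither gene was called in any comparison, and whether depth limited this was not tested.

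The members were then set beside a wider list of imprinted genes. Of 66 symbols listed, 64 were found and 54 tested, members included. Without the members 45 were tested, of which 8 were called for cisplatin against vehicle (1 higher, 7 lower) and 12 for cotreatment against KW6002 (5 higher, 7 lower), that is 17.8% and 26.7%, beside 10.6% and 23.3% of all genes. These counts include low genes (Slc22a18, Ddc and Rtl1) that passed the filter on low counts wholly or mostly through tumors in which they are high. Among the 33 with a mean of at least 50 counts, a limit chosen after seeing the data, 6 (18.2%, all lower) and 9 (27.3%; 2 higher, 7 lower) were called, beside 10.8% and 23.2% of the 12744 tested genes with such a mean. The median log2 fold changes of the 45, -0.03 and -0.03, were close to those of all tested genes, 0.00 and -0.01. For cotreatment against vehicle 13 of the 45 were called (5 higher and 8 lower, 28.9%), beside 23.5% of all genes. The 5 higher were Kcnq1ot1 and the low genes Magel2, Rtl1, Slc22a18 and Ddc. Magel2 averaged 0.122 CPM with vehicle and 0.545 CPM with cotreatment, and nothing is read from the calls of these low genes. Of the 33 with the higher mean, 9 were called (1 higher and 8 lower, 27.3%), beside 23.4%. Against cisplatin 3 of the 45 were called, Ddc among them (6.67%, beside 4%), and for KW6002 against vehicle and the interaction 0. With the members included, 4 were called against cisplatin, a count that was 11 without cisplatin replicate 1 and 0 in the later run.

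Genes expressed from either parental allele were among those lowered. Among 26 tested genes of paternal expression, 6 were lower and 0 higher after cisplatin, Peg10 being 1 of them by choice, and among 24 of maternal expression 4 were lower and 1 higher. One of the 4, Asb4, had a mean of 28.6 counts, and its call held under 19 of 30 alternatives and was lost, among others, without any single one of vehicle replicates 2 to 5 or cisplatin replicates 2 to 5. Of all tested genes 4.57% were lower and 6.01% higher in this comparison. In cotreatment against KW6002, 3 of the 26 were higher, Rtl1 among them, and 5 lower, Peg10 included (30.8%). Of the 24, 1 (Slc22a18) was higher and 4 were lower (20.8%), beside 23.3% of all tested genes. Kcnq1, a maternally expressed potassium channel gene, fell by 1.12 after cisplatin (adjusted P = 1.04e-04, edgeR) and by 0.60 in cotreatment against KW6002. Atp10a, a lipid flippase gene imprinted in some tissues, fell by 0.43 and 0.69 and had ranges of 78.3 to 85.0, 79.2 to 83.3, 54.6 to 66.6 and 47.3 to 53.6 CPM in vehicle, KW6002, cisplatin and cotreatment. Snrpn, a splicing factor gene of the Prader-Willi cluster, had a fall of 0.47 after cisplatin (adjusted P = 0.0189, edgeR) and a higher level, by 0.48, in cotreated than in cisplatin tumors (adjusted P = 0.0348, edgeR). Both calls rest on the same 5 cisplatin tumors, and its interaction was not called (0.61, adjusted P = 0.171, edgeR). Its groups overlapped, the first call was lost without vehicle replicate 1 or cisplatin replicate 4, and the second was lost under 9 of 30 alternatives, including without cisplatin replicate 3, 4 or 5 and without cotreated replicate 1, 2 or 3.

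Further genes of the list were called in comparisons of cotreated tumors. The interaction was not called for any of them in edgeR. Gatm, an enzyme gene of creatine synthesis, fell in cotreatment against KW6002 by 0.48 and against cisplatin by 0.41 (adjusted P = 0.00963, edgeR). The call against cisplatin was lost in the later run and with only the compared groups in the fit, and over the 30 alternatives its log2 fold change was as small as -0.24. Peg12 fell by 0.77 against KW6002, and Rian, a noncoding RNA of the Dlk1 cluster, by 1.17 against vehicle, a call lost without vehicle replicate 5 or cotreated replicate 2 or 3, in the later run and with no filter, its log2 fold change being as small as -0.65. Zrsr1 and Dcn, the latter a small proteoglycan gene of fibroblasts, rose by 0.34 and 0.37 against KW6002, and the call of Zrsr1 was lost without KW6002 replicate 1 or cotreated replicate 5. In the later run the calls of Peg12 and Dcn against KW6002 were lost. Kcnq1ot1, the noncoding RNA that silences the Kcnq1 domain on the paternal allele, was higher by 0.33 in cotreated than in vehicle tumors (adjusted P = 0.0449, edgeR) but at 0.06 against KW6002 (adjusted P = 0.755, edgeR), and at 0.27 for KW6002 against vehicle (unadjusted P = 0.0421, adjusted P = 1.00, edgeR). The call against vehicle was lost under 13 of 30 alternatives, among them leaving out any single vehicle tumor, KW6002 replicate 1 or cotreated replicate 1, 3 or 4.

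Cisplatin against vehicle and cotreatment against KW6002 share no tumor, so their log2 fold changes could be compared. Over the 54 imprinted genes they correlated with r = 0.79 across genes, which are not independent, and 38 (70.4%) had the same sign. Over all 16665 genes these values were 0.75 and 75.2%. Without Peg10, which was chosen on the first comparison, r was 0.78 and 69.8% had the same sign, and without all members 0.78 and 73.3%. Each imprinted r and sign share includes the low genes Slc22a18 (log2 fold changes 1.53 and 1.93), Rtl1 (1.45 and 2.40), Magel2 and Ddc. Slc22a18, Rtl1 and Ddc passed the filter wholly or mostly through tumors in which they are high. Values without them were not calculated, and nothing is read from r or the sign shares of the imprinted genes. Called in both, in the same direction, were 9 of the 54 (16.7%) and 8.20% of all tested genes. Without Peg10 the count was 8 of 53 (15.1%), and without the members 6 of the 45 (13.3%). Slc22a18 is in each of these imprinted counts. The 9 were Peg10, Mest, Usp29, Airn, Igf2r, Kcnq1, Ppp1r9a and Atp10a, which were lower, and Slc22a18, an organic cation transporter gene with a mean of 20.8 counts, which was higher. Slc22a18 passed the filter on low counts mostly through the cisplatin and cotreated tumors, in which it is high, so nothing is read from its calls.

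**Figure D4:**
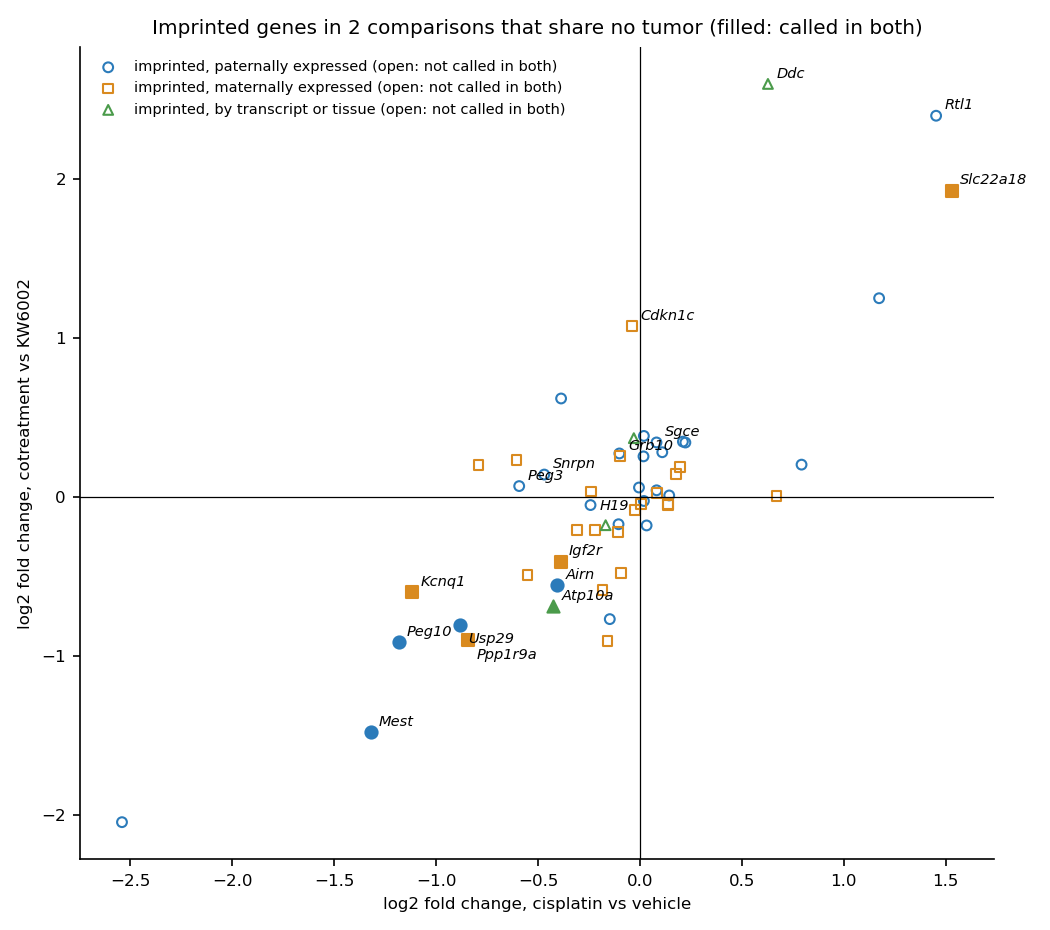
Log2 fold change after cisplatin against vehicle (x axis) and in cotreatment against KW6002 (y axis) of 54 imprinted genes, by parental expression (color and shape). Filled points were called in both; 8 of these 9 genes lie at the lower left. Peg3 and Snrpn lie left of 0 but not below it.

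The IGF axis, through which several members act, was described next. Of 15 tested genes, which include Igf2r and Grb10, 0 were higher and 2 lower after cisplatin (13.3%, beside 10.6% of all tested genes), and 2 were higher and 3 lower in cotreatment against KW6002 (33.3%, beside 23.3%). Igfbp3, a secreted binding protein of IGFs, fell from 127 to 198 CPM in vehicle to 40.4 to 96.2 CPM in cisplatin tumors, which was a drop of 1.24 on the log2 scale (log2 fold change -1.24; adjusted P = 0.00133, edgeR), and fell by 0.85 in cotreatment against KW6002. Of the docking proteins of the insulin and IGF receptors, Irs1 fell by 0.43 and Irs2 rose by 0.45 in cotreatment against KW6002, and neither was called after cisplatin alone. Igf2bp3, which binds Igf2 mRNA, rose by 0.33 against KW6002, and Igfbp4 fell by 0.34 in cotreatment against vehicle. Both calls were close to the fold limit, and Igfbp4 was not called against KW6002. Igf2bp3 ranged from 18.4 to 22.3 CPM in KW6002 and from 18.4 to 29.3 CPM in cotreated tumors, so these groups overlapped.

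Genes that maintain DNA methylation and imprints were examined in the same way. Of 13 tested, 0 were called after cisplatin and 3 in cotreatment against KW6002, 1 higher and 2 lower, a share (23.1%) close to that of all tested genes (23.3%). Dnmt1, the maintenance DNA methyltransferase, ranged from 277 to 317 CPM in KW6002 and from 212 to 236 CPM in cotreated tumors, a fall of 0.40 (adjusted P = 2.10e-05, edgeR), and was -0.19 after cisplatin, under the fold limit. Uhrf1, which brings DNMT1 to newly copied DNA, fell by 0.44 and Tet2, which oxidizes methylcytosine, rose by 0.48. Smchd1, a chromatin protein that keeps some imprinted clusters silent, fell by 0.33 against vehicle, close to the fold limit, and was not called against KW6002. In cotreatment against cisplatin 1 of the 13 was called (7.69%, beside 4% of all genes), Tet2, which was higher by 0.38 (adjusted P = 0.0307, edgeR). The interaction was not called for any of the 13.

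Among 11 tested genes derived, like Peg10, from retroviral gag sequences, Peg10 was the single gene called after cisplatin (9.09%, beside 10.6% of all tested genes), by the value on which it was chosen. In cotreatment against KW6002, 2 were higher and 2 lower, Peg10 included (36.4%, beside 23.3%). Rtl10 ranged from 8.05 to 11.6 CPM in KW6002 and from 4.77 to 6.63 CPM in cotreated tumors, a fall of 0.88 (adjusted P = 2.44e-05, edgeR), and was -0.31 after cisplatin (adjusted P = 0.0990, edgeR). Among all lists, 6 called genes had a mean under 50 counts, namely Slc22a18, Asb4, Magel2, Ddc, Rtl1 and Rtl9. Of these, Ddc, which encodes an enzyme of dopamine and serotonin synthesis, was at 0.0640 to 0.222 CPM with KW6002 and 0.358 to 1.57 CPM with cotreatment, and Rtl1, a gag-derived gene of the placenta, at 0.0322 to 0.158 and 0.437 to 0.689 CPM. With means of 11.2 and 8.1 counts per tumor, they passed the filter on low counts through the cotreated tumors, in which they are high, and Rtl9 did so mostly through the same tumors. Nothing is read from the calls of these genes, the 2 higher gag-derived genes (Rtl1 and Rtl9) included.

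The genes most like Peg10 were sought among 12743 other genes with a mean of at least 50 counts. Over 20 tumors, Tiam2 (0.955), Pcdh12 (0.952) and Zswim9 (0.948) were among the genes with the highest Pearson correlations of log2 CPM. None of these 3 is among the imprinted genes listed. Mest ranked 29th (0.92), Ppp1r9a 39th (0.91) and Igf2r 100th (0.88), whereas Peg3 was at 0.56, H19 at 0.37, Grb10 at -0.03 and Sgce at -0.58. These values mainly reflect the treatment groups. With group means removed, Ank3 (0.877), Heatr6 (0.850), Peak1 (0.844), Atf7 (0.828) and Usp12 (0.828) were highest, Ppp1r9a was at 0.58, Grb10 at 0.48, Igf2r at 0.48, H19 at 0.47, Mest at 0.43, Usp29 at 0.43, Peg3 at 0.29 and Sgce at -0.11. The tumors share library scaling and run, and the correlations are given as a description.

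Markers of other cells moved with the treatment. All 7 endothelial markers were called lower after cisplatin and 5 of 7 in cotreatment against KW6002, and their summed level was 144 to 212 CPM in vehicle, 124 to 201 CPM in KW6002, 70.6 to 98.1 CPM in cisplatin and 76.8 to 116 CPM in cotreated tumors. None of these markers was at 0, and the median of their log2 fold changes was -0.91 after cisplatin and -0.78 in cotreatment against KW6002, where Peg10 was at -0.91 and Mest at -1.48. The 5 red blood cell markers summed to 25.9 to 117 CPM in vehicle and at most 0.110 CPM in any tumor with cisplatin. Of 8 fibroblast markers, 3 were lower after cisplatin and 2 were lower and 1 higher in cotreatment against KW6002, and their summed level overlapped between all groups (8562 to 14289 CPM in cisplatin, 9828 to 12850.0 CPM in vehicle tumors). The 6 T cell markers were all called lower in cotreatment against KW6002 (summed level 2.68 to 27.1 CPM in KW6002, 0.634 to 2.54 CPM in cotreated tumors). With 1.16 to 5.84 CPM in vehicle and 0.676 to 5.52 CPM in cisplatin tumors, 0 of the 6 were called after cisplatin and 1 in cotreatment against vehicle. The summed level of the lung epithelial markers, most of it Krt8 and Krt18, was 392 to 426 CPM with vehicle and 324 to 435 CPM with KW6002, and without overlap 481 to 599.7 CPM with cisplatin and 468 to 549 CPM with cotreatment, 1 of 4 tested markers being called higher in each comparison of tumors with and without cisplatin. Of 7 macrophage markers, 1 was higher after cisplatin and 1 was higher and 2 lower in cotreatment against KW6002, and their summed level overlapped between all groups (1072 to 2031 CPM over all tumors). The 4 tested adipocyte markers were not called, with a median log2 fold change of -4.05 after cisplatin and a summed level of 21.2 to 233 CPM with vehicle, 18.96 to 110.1 CPM with KW6002, 12.5 to 32.1 CPM with cisplatin and 27.5 to 56.2 CPM with cotreatment. Skeletal muscle markers varied within groups, up to 56.5, 227, 245 and 1025 CPM in the highest vehicle, KW6002, cisplatin and cotreated tumor, and 0 of 6 were called. The part of these cells in the lower Peg10, Mest, Ppp1r9a and Igf2r levels was not tested.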

How the data were processed

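The authors deposited counts, whole numbers of reads per Ensembl gene. Libraries were stranded and poly(A)-selected, and single-end reads were demultiplexed with bcl2fastq 2.17.1.14, aligned to mm10 with STAR and counted with HTSeq 0.6.1p1, per the labels and the study's methods. The strand option of the counting was not given in the sources used here. Groups follow the sample labels. Of 35226 genes, 35142 had a symbol in GENCODE M21 (GRCm38). No count column was left unused.

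Counts were filtered with filterByExpr (16665 genes, 99.9% of counts), normalized by trimmed M-value means (TMM) and fitted with edgeR 4.0.16 (R 4.3.3; quasi-likelihood, robust, 4 group means, all 20 tumors). The study used DESeq2; version 1.42.0 served here as an alternative. Tests were two-sided with Benjamini-Hochberg adjustment over all tested genes, and calls needed an adjusted P under 0.05 and an absolute log2 fold change of at least 0.32. CPM use scaled library sizes, and log2 CPM a prior count of 2. The 95% intervals are the estimate and its error with the 16 residual degrees of freedom. The exact permutation test used scipy 1.17.1. The same fit was also run on simulated counts with changed genes, whose means and spread were taken from these data. Each tumor is 1 library of 1 animal as far as the labels tell. The common biological coefficient of variation was 0.163. No pair of replicates was as close as repeated counting of 1 library. Reads carry no molecular identifiers.

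Named genes are the 10 members, genes of the imprinted, IGF, imprint maintenance and gag-derived lists called in any comparison with a mean of at least 50 counts, genes within 500 kb of Peg10, and the 5 genes most correlated with Peg10 in each of 2 ways, some of which are not reported here; Copg2, 6 called genes with fewer counts and single markers were added after their values were seen. Members and lists were chosen with earlier results of these data known. Alternatives were DESeq2, relative log expression and upper quartile scaling, no filter, at least 10 counts in every tumor, a replicate block, the code run as a term or the later run alone, no fold limit, only the groups compared, and leaving out each tumor. For single genes they cover the members and the wider imprinted list, not the other lists.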

Additional observations from a re-analysis of the deposited data

Results flagged for a closer look

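In 36 groups of 5 values (9 tested members in 4 groups), 2 tumors lay far from the rest of their group, the gap to the nearest tumor being over 0.71 of the group's range. By chance about 1 in 20 groups is marked in this way. Cdkn1c was 0.522 CPM in vehicle replicate 3, where the nearest tumor had 0.165 CPM, on a base of 16 and 6 counts. Grb10 was 116 CPM in vehicle replicate 2, where the nearest tumor had 122 CPM, in a group that otherwise spans less than 2 CPM.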

How the results depend on the processing

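Alternatives left the calls of Peg10, Mest and Igf2r and that of Peg3 after cisplatin in place. The members called in cotreatment against cisplatin (1) became 2 with DESeq2, relative log expression scaling, no fold limit, no filter, and a filter of 10 counts in each tumor, and 0 in the later run. Leaving out 1 tumor gave 1 to 2, with 2 without cisplatin replicate 1 or 5 or cotreated replicate 4. The imprinted genes called there (4) became 0 in the later run, 2 with only the groups compared, and 3 to 11 without 1 tumor, the 11 without cisplatin replicate 1. With no fold limit, cotreatment against vehicle called 5 members and 26 imprinted genes of 54, beside 35.4% of all tested genes. The interaction called 2 members and 3 imprinted genes in DESeq2 (1.79% of genes with an adjusted P value), and 0 to 1 of each without 1 tumor, the 1 being without cotreated replicate 4. Leaving out 1 tumor otherwise gave 4 to 4 members and 10 to 14 imprinted genes after cisplatin, 3 to 3 and 14 to 17 for cotreatment against vehicle, 3 to 4 and 15 to 18 against KW6002, and 0 for KW6002 alone; no value reversed. Counting only genes with a mean of at least 50 counts, chosen after seeing the data, moved no count of called members or imprinted genes in both directions together by over 1.5 times, but the imprinted genes called higher, members left out, went from 5 to 1 for cotreatment against vehicle, from 5 to 2 against KW6002 and from 2 to 1 against cisplatin, and from 1 to 0 for cisplatin against vehicle.

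The difference in the log2 ratio of Peg10 to Sgce between cotreatment and KW6002 was -1.22 in the later run (exact P = 0.2, the smallest this design can reach for this statistic being above the threshold), and -1.36 to -1.17 without 1 tumor (exact permutation P = 0.0159 each). These P values, too, followed from the levels of each gene, which did not overlap between the groups. Replicate numbers did not pair the tumors: of 30 same-number pairs of groups, 12 had correlations of deviations over 0.1 (-0.392 to 0.391, median -0.0258). With a replicate block this difference was -1.26, where 5 differences allow an exact sign-flip P no lower than 0.0625, and 4, 3, 1, 4, 0 and 0 members and 11, 16, 4, 18, 0 and 0 imprinted genes were called for cisplatin and cotreatment against vehicle, cotreatment against cisplatin and KW6002, KW6002 alone and the interaction. The causes of these shifts were not tested. Igf2 had too few counts to be tested, and Cdkn1c and Plagl1 had low counts.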
